A study of Mus musculus with 6 samples.

Results

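Major urinary proteins are small secreted lipocalins, barrel-shaped carriers that bind volatile pheromones. Hepatocytes of male mice make them in large amounts, release them into the blood, and the kidney passes them into the urine, where they serve as scent signals. Their genes lie side by side in 1 cluster on mouse chromosome 4, and growth hormone acting through STAT5 is known to drive their transcription, with a male pattern of hormone pulses giving high levels. The 10 genes described here, Mup1, Mup2, Mup3, Mup7, Mup9, Mup10, Mup15, Mup17, Mup20 and Mup21, were taken by symbol from the 18444 gene rows of the files, which hold 21 Mup rows in all. They were chosen by their values in these same libraries, so their levels and ratios are given as a description, and nothing is tested with them.

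Liver RNA of male C57BL/6 mice, C57BL/6J in the study's methods, with an age label of 6 to 8 weeks, was sequenced in 6 libraries, 1 for each condition. The methods give that age for the mice used in models of 16 and 6 weeks, so it is not read as the age at sampling. The series asks what JT003, a peptide agonist of the adiponectin receptors AdipoR1 and AdipoR2, changes in diet-induced and in toxic liver injury. In the diet model, SD stands for the control on a standard diet. HFD stands for the high-fat diet group, which the labels call NASH, and HFD + JT003 for that diet with the peptide. In the CCl4 model, corn oil is the vehicle control, CCl4 is the hepatotoxin carbon tetrachloride given to cause fibrosis, and CCl4 + JT003 received both agents. Per the study's methods a diet of 16 weeks with JT003 in the last 4 weeks, and CCl4 over 6 weeks every 3 days with JT003 for 3 weeks, made up the models, with 6 mice per group and JT003 at 500 ug per kg. The labels and methods do not say whether a library holds RNA of 1 mouse or of several, whether the diet group was switched to a methionine and choline deficient diet as in the NASH version of the model, or the hour of sampling. No condition has a replicate library, so no difference below has a replicate check and no p-value is given. The intervals cover counting error only, and without molecular identifiers copies of 1 molecule may be counted more than once.

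The libraries held between 19374236 and 20184557 reads as rounded expected counts, the authors' estimate of the reads of each gene. Albumin was the gene with the highest FPKM, reads scaled to transcript length and library size, in all 6 libraries, and none of 8 hepatocyte markers was at 0. Their summed level lay between 48404 and 67009.6 FPKM, and it was highest in the CCl4 library, where albumin alone gave 36235 FPKM. In CCl4 against corn oil, 3 of the 8 markers had log2 ratios above 0 and 5 below 0. The median was -0.22, with Tat at -1.09. The Y-linked genes on the sex check list were found in every library, with 25.2 to 38.4 FPKM in sum, and Xist lay at 0.01 to 0.05 FPKM. In bulk liver, fewer hepatocytes and less RNA per hepatocyte cannot be told apart.

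The members differ in how well reads can be told apart, and a stretch of coding sequence shows this. The 60 bases below, read in sense from GENCODE M21 transcripts on GRCm38 and lying in coding exon 3 of each gene on the minus strand, are the gap-free stretch within 1 coding exon with the most varying positions among the 10 members, 20 of 60. Capitals mark bases that differ from Mup10.
Mup10 (chr4:60580693-60580752): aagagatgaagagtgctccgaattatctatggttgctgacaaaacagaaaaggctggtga
Mup7 (chr4:60068915-60068974): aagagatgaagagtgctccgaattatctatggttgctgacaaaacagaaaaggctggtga
Mup9 (chr4:60420501-60420560): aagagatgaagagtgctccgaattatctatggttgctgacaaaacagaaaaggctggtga
Mup17 (chr4:61594365-61594424): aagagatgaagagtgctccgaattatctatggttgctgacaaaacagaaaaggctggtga
Mup1 (chr4:60500453-60500512): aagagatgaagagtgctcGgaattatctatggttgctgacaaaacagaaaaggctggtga
Mup2 (chr4:60138401-60138460): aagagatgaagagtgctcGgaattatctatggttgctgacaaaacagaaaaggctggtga
Mup15 (chr4:61438237-61438296): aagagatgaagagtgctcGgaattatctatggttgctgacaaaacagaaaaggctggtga
Mup20 (chr4:62052650-62052709): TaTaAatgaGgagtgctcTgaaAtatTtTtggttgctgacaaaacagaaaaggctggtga
Mup21 (chr4:62149368-62149427): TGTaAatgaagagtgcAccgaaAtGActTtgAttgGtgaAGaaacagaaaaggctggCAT
Mup3 (chr4:62085973-62086032): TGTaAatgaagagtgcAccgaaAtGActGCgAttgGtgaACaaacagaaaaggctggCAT
Mup7, Mup9 and Mup17 have 0 differences from Mup10 here, and Mup1, Mup2 and Mup15 have 1, at the same position. Mup20 has 8, Mup21 has 16 and Mup3 has 17. Over whole transcripts, the 7 members other than Mup3, Mup20 and Mup21 shared 98.3% to 99.6% of aligned bases between each other (median 98.9% over 21 pairs). Mup20 shared 90.6% to 91.2% with those 7, Mup21 86.7% to 87.6% and Mup3 83.9% to 87.0%. Mup3 and Mup21 were closer to each other, with 96.1% of 596 aligned bases shared. Of all windows of 50 bases in the transcript, 0% were found in no other gene for Mup2 and Mup15, 5.24% for Mup1, 7.44% for Mup9, 9.76% for Mup7, 13.8% for Mup10 and 21.9% for Mup17. The share was 49.5% for Mup20, 80.7% for Mup21 and 84.4% for Mup3. Counts of the first 7 are therefore uncertain gene by gene, since the authors' counting had to split reads among near-identical copies, and the sum of the members and the counts of Mup3, Mup20 and Mup21 depend less on that split.

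The 10 members together took 757290 reads in SD, 1288333 in HFD, 913114 in HFD + JT003, 1153456 in corn oil, 222184 in CCl4 + JT003 and 136450 in CCl4. As a share of all reads of the library, that was 3.75% (exact 95% interval 3.74 to 3.76) in SD, 6.53% in HFD, 4.60% in HFD + JT003, 5.94% in corn oil and 1.15% (1.14 to 1.15) in CCl4 + JT003, and the lowest share, in CCl4, was 0.677% (0.673 to 0.681). By this share the order was HFD, corn oil, HFD + JT003, SD, CCl4 + JT003 and CCl4, and no neighbours in that order had overlapping counting intervals. The order of HFD and corn oil depends on the scaling. With TMM factors over all 6 libraries, the log2 ratio of the member sum to SD was 0.68 in HFD and 0.76 in corn oil. With all 21 rows, the family took 6.10% of the reads in SD, 12.4% in HFD, 8.57% in HFD + JT003, 10.5% in corn oil, 1.26% in CCl4 + JT003 and 0.768% in CCl4. The 2 control libraries were not alike. Corn oil had a higher member sum than SD by 0.76 on the log2 scale, with TMM factors computed over all 6 libraries for this pair from different models. By the member sum, SD thus lay below both HFD libraries and corn oil. For the sum of Mup3, Mup20 and Mup21, the log2 ratio to SD was 0.08 in HFD but -0.42 in HFD + JT003 and -0.20 in corn oil. The 7 other members in sum had 1.22 in corn oil, so the higher member sum there lay in genes whose reads are shared. The 2 controls come from models of 16 and 6 weeks, so age may differ between them, and the methods do not give the diet of the corn oil mice.

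**Figure D1:**
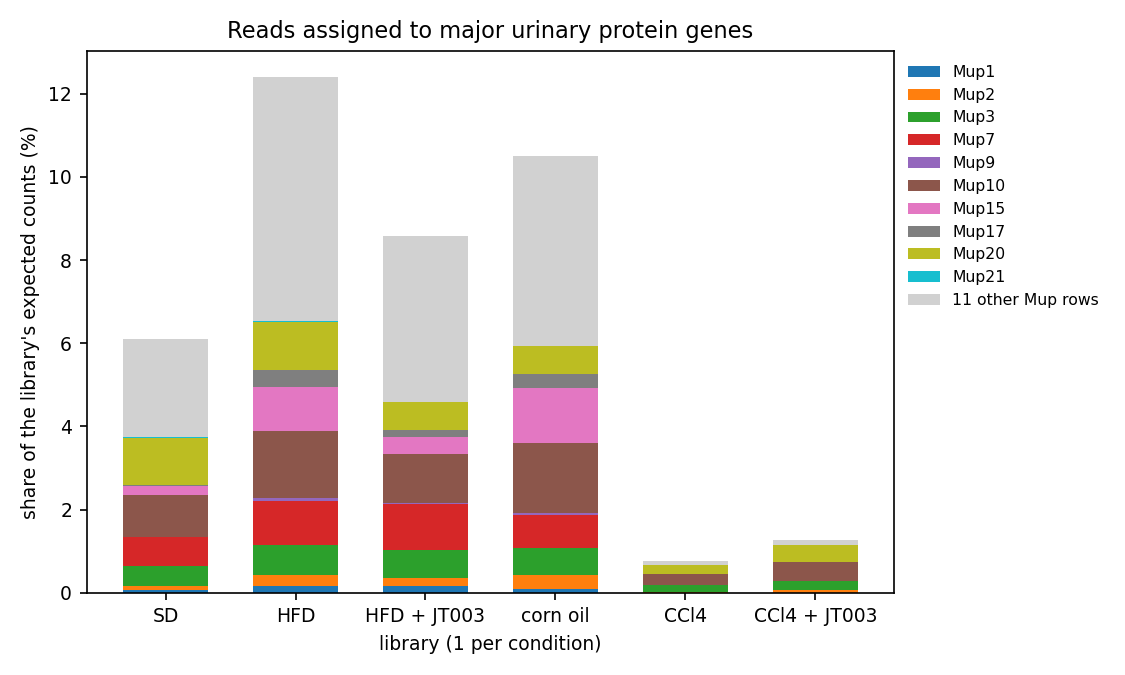
Share of each library's expected counts (%) assigned to the 10 members, stacked by gene, and to the 11 other Mup rows in grey, with 1 library per condition. The stack reaches 12.4% in HFD and 10.5% in corn oil, and 0.768% in CCl4 and 1.26% in CCl4 + JT003.

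On the FPKM scale, which allows genes to be compared, Mup10 was the highest member in HFD, HFD + JT003, corn oil, CCl4 and CCl4 + JT003, and Mup20 in SD. Mup10 had 11150 FPKM in SD, 18094 in HFD, 13162 in HFD + JT003, 18880 in corn oil, 5070 in CCl4 + JT003 and 3034 in CCl4. Mup20, which encodes the male pheromone darcin, had 12937 in SD, 12914 in HFD, 7491 in HFD + JT003, 7477 in corn oil, 4535 in CCl4 + JT003 and 2453 in CCl4. Mup20 was the member with its highest level in SD. Counting intervals of its unscaled share of reads overlapped between SD and HFD and between HFD + JT003 and corn oil. With TMM scaling these pairs were not level. The log2 ratio to SD was -0.13 (interval -0.134 to -0.117) in HFD and -0.93 in HFD + JT003. It was -0.69 in corn oil, with factors over all 6 libraries. Mup3 had 5464, 8139, 7576, 7364, 1820 and 2528 FPKM in SD, HFD, HFD + JT003, corn oil, CCl4 and CCl4 + JT003. Mup21, the lowest of these distinct genes, had 233.8, 343.8, 265.1, 238.1, 24.5 and 26.5 FPKM in that sequence. Both CCl4 libraries lay below the other 4 for Mup3, Mup10, Mup20 and Mup21, without overlap.

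Among the other near-identical members, Mup7 had 6917, 10387, 10939, 7754, 18.0 and 24.2 FPKM in SD, HFD, HFD + JT003, corn oil, CCl4 and CCl4 + JT003. Mup15 had 2577, 12141, 4868 and 15371 FPKM in the first 4 of these and was listed at 0 in both CCl4 libraries. Mup17 had 271.4, 4747, 1920, 3740, 0.22 and 0.98. All 3 genes had 3740 FPKM or more in corn oil, and with CCl4 Mup15 and Mup17 were under 1 FPKM while Mup7 kept 18.0 FPKM or more. Mup2 had 1333, 3668, 2391, 4586, 299.2 and 811.2 FPKM, and Mup1 had 730.0, 1935, 2245, 1037, 2.86 and 9.16. Mup9 was listed at 0 in SD, had 740.6 FPKM in HFD, 110.9 in HFD + JT003 and 345.2 in corn oil, and was listed at 0 in both CCl4 libraries. For 9 of the 10 members SD was the lowest of the 4 libraries without CCl4. The spread over those 4 libraries was small for Mup21, Mup3, Mup7, Mup10 and Mup20, whose highest FPKM was 1.47, 1.49, 1.58, 1.69 and 1.73 times the lowest, and wider for Mup1 (3.08 times), Mup2 (3.44), Mup15 (5.96) and Mup17 (17.5). Of the 20 genes with the highest FPKM in a library, 4 were members in SD, 6 in HFD, 5 in HFD + JT003, 5 in corn oil, 2 in CCl4 + JT003 and 0 in CCl4.

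**Figure D2:**
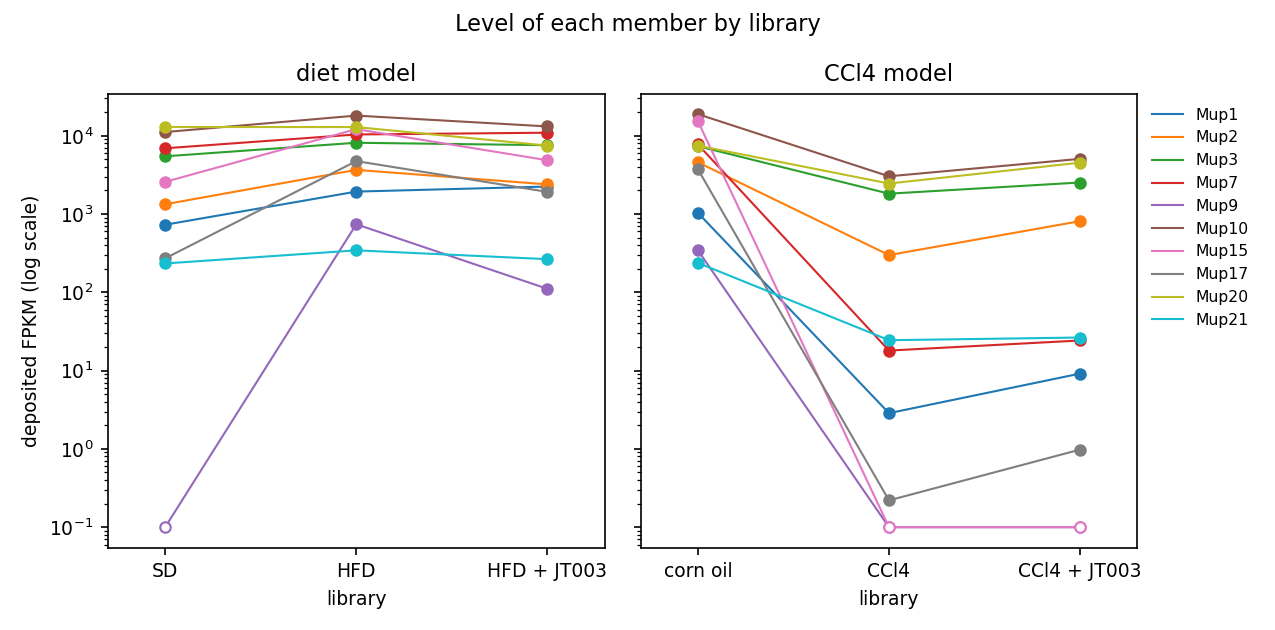
Deposited FPKM of each member (log axis) in the 3 libraries of the diet model and the 3 of the CCl4 model, with 1 library per point and open points at the foot for genes listed at 0. Mup10, Mup20 and Mup3 had at least 1820 FPKM in every library, and Mup15 went from 15371 FPKM in corn oil to 0 in both CCl4 libraries.

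Comparing CCl4 with corn oil asks what the toxin changed. The member sum was 10.3-fold lower in CCl4, a log2 ratio of -3.37 (95% counting interval -3.38 to -3.36) after TMM scaling of the library sizes, which corrects for differences in composition. All 10 members were lower by at least 1 on the log2 scale, where 4.91% of 13602 genes were lower and 8.76% were higher, counting genes that reached 10 counts in either library. The median log2 ratio was -6.42 over the members, also with genes at 0 set to their bound, and 0.01 over all genes. This contrast was among the values that chose the members, so nothing is read from that count.

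The size of the difference was uneven. Mup20 was 3.59-fold lower in CCl4, Mup3 4.77-fold, Mup10 7.34-fold, Mup21 11.5-fold and Mup2 18.1-fold. Mup1, with 45 reads in CCl4 against 15676, was 425-fold lower, and Mup7, with 370 against 153582, was 507-fold lower. Mup17 had 4 reads in CCl4 against 63156 (log2 ratio -13.60, interval -16.11 to -12.88). Mup9 and Mup15 had 0 reads in CCl4, against 5801 and 260453 in corn oil, and with 3 counts taken as the limit of a library at 0 they were at least 2360-fold and at least 106000-fold lower. Mup9, Mup15 and Mup17 passed the count filter only through the corn oil library, so they had to differ. By limits chosen after the values were seen, 5 members were under 20-fold lower and 5 at least 100-fold lower, with 0 in between.

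The make-up of the family differed between the libraries with and without CCl4. Mup10 took 16.1% of the family's reads in corn oil and 35.2% in CCl4. The 3 members most distinct in sequence from the 7 others were also summed, of which Mup21 held 0.234% in CCl4. Mup3, Mup20 and Mup21 together took 27.1%, 15.3%, 15.9% and 12.8% of the family's reads in SD, HFD, HFD + JT003 and corn oil, and 49.8% and 49.9% in CCl4 and CCl4 + JT003. Their sum was 4.14-fold lower in CCl4 than in corn oil, the sum of the 7 other members 18.4-fold lower and the sum of the 11 other Mup rows 58.9-fold lower. In the sum of the 11 other rows, Mup11, Mup14 and Mup19 went from 11350, 14460 and 18400 CPM, that is counts scaled to the library total, in corn oil to 5.31, 105.4 and 6.05 in CCl4. Mup18 was the 1 row of the 21 with more CPM in CCl4 (788.6) than in corn oil (383.4). Over all 21 rows, the 6 genes with more than 40% of windows found in no other gene had log2 ratios between -4.35 and -1.85, of which Mup4, Mup5 and Mup6 rest on 4, 3 and 5 reads in CCl4. The 15 genes with 21.9% or less had ratios between -16.69 and 0.81, a wider range at both ends. The part of read sharing among the near-identical copies in these ratios was not tested.

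**Figure D3:**
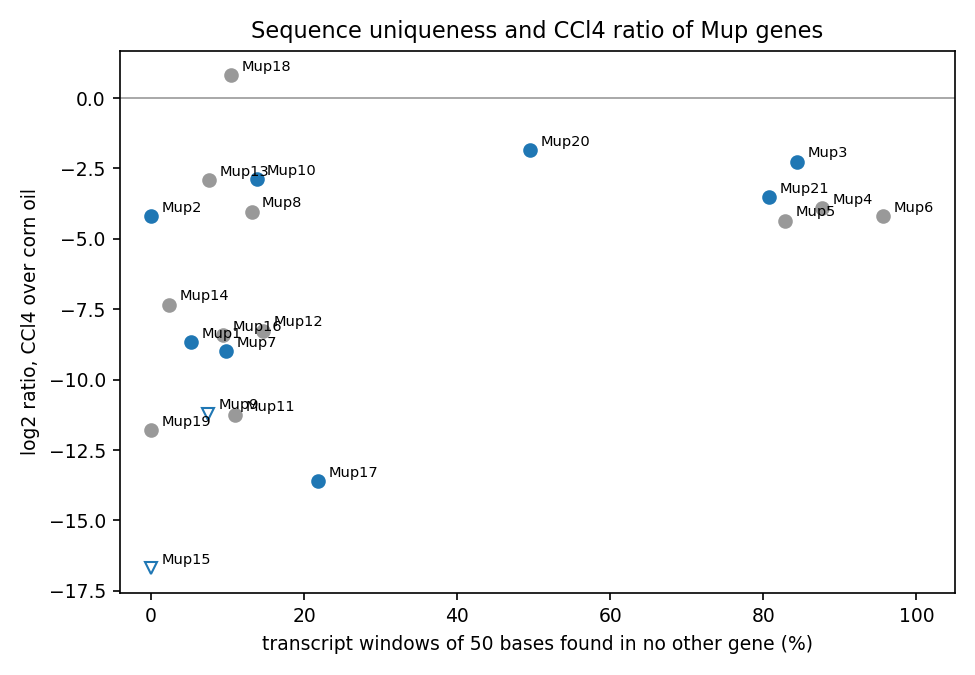
log2 ratio of CCl4 over corn oil for the 21 Mup rows against the share of 50-base transcript windows found in no other gene (%), with members in blue, the other rows in grey and open triangles for upper bounds of genes at 0 in CCl4. The 6 genes on the right lie between -4.35 and -1.85, and the 15 on the left between -16.69 and 0.81.

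Members with unlike listed ratios can have start regions that are nearly the same. For the pair shown the ratios are uncertain, since 13.8% of 50-base windows in Mup10 and 0% in Mup15 are found in no other gene. Mup10, the highest member in CCl4, was 7.34-fold lower and Mup15 at least 106000-fold lower, and the 250 bases before their annotated start sites, from RefSeq on GRCm38.p6, minus strand, are printed in sense with capitals for bases that are unequal or stand opposite a gap in the pairwise alignment. The first 8 bases of Mup15 and the last 5 of Mup10 lie outside the alignment and are left in lower case. Of 241 aligned bases, 12 were mismatches.
Mup10 (chr4:60582156-60582405): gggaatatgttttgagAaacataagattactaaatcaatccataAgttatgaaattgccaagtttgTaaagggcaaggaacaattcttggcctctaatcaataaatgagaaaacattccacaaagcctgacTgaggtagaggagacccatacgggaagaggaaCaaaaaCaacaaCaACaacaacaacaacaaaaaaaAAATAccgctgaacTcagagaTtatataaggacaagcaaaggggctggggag
Mup15 (chr4:61439705-61439954): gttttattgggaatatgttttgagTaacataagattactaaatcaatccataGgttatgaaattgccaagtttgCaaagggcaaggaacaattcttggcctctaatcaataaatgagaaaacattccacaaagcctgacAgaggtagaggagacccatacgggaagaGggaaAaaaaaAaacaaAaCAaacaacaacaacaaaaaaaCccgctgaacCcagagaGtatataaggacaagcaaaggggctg
The RefSeq promoter table held 8 of the 10 members, all but Mup1 and Mup20, as 300 bases around the start site. Mup3, which was 4.77-fold lower in CCl4, shared 87.4% of aligned bases with Mup15. The Mup15 and Mup17 windows were 100% identical over their 297 aligned bases, Mup2 and Mup15 99.3%, and Mup3 and Mup21 93.9%. The letters of the STAT5 motif, TTCNNNGAA, searched on both strands, had 0 matches in the 8 windows and were found in 8.3% of all 32851 promoters of the table. The exact TATA box letters TATAAA also had 0 matches in the 8 windows and were found in 13.6% of all promoters. Both printed stretches hold the close variant tatataag near the start site, which the exact search does not take. A TATA box is therefore not said to be missing. The STAT5 letters can lie outside windows of this length.

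The authors' comparison table of the CCl4 groups holds a pooled CCl4 column of expected counts, which sums to 2.97 times the CCl4 library. Taking the CCl4 library off that column leaves a remainder, here read as other CCl4 livers from the values alone. The members took 0.611% of the reads of the remainder, beside 0.677% in the CCl4 library and 5.94% in corn oil. Mup10 had 2321 CPM in the remainder and 2703 in the CCl4 library, and Mup20 had 2096 and 2168. Mup3 had 1377 and 1638, Mup2 242.1 and 221.7, and Mup21 16.5 and 18.0. Mup15 was at 0 in both. Mup7 and Mup1 were higher in the remainder, at 45.5 against 18.4 and at 9.73 against 2.23 CPM, and Mup9 had 1.13 CPM there and 0 in the CCl4 library. Mup17 had 0 in the remainder and 0.198 in the library. The low level of the members was thus found in both sets of CCl4 reads.

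Comparing CCl4 + JT003 with CCl4 asks what the peptide changed in the fibrotic liver. The CCl4 library stands in this comparison and in the one above. The member sum was 1.62-fold higher with JT003 (log2 ratio 0.69, interval 0.683 to 0.702), and it remained 6.39-fold below corn oil. Of the 8 members past the count filter, 3 were higher than in the CCl4 library by at least 1 on the log2 scale (Mup1, Mup2 and Mup17) and 0 were lower. Mup17 passed the filter only through CCl4 + JT003, so it had to differ, and with a limit of 100 counts 2 members were higher. Of all 13785 genes past the filter, 4.64% were higher and 4.24% lower. The median over these 8 members was 0.75 and that over all genes -0.01.

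Mup2 had 4468 reads in CCl4 and 11703 with JT003, a log2 ratio of 1.38. Mup1 had 45 and 138 reads (1.56), and Mup17 had 4 and 16 (1.58, interval 0.36 to 4.03), so that both rest on few reads. The abundant members were higher by less than the fold limit, with log2 ratios of 0.82 for Mup20, 0.67 for Mup10 and 0.41 for Mup3. Mup7 had 370 and 479 reads (0.36) and Mup21 362 and 377 (0.05), whose interval spans 0. Mup9 and Mup15 had 0 reads in both libraries, and no ratio is given for them. For 3 members the direction depended on which CCl4 reads were used. Mup1 had 7.12 CPM in CCl4 + JT003, above the 2.23 of the CCl4 library but below the 9.73 of the remainder of the pool. Mup7 had 24.7 CPM, above 18.4 in the library and below 45.5 in the remainder, and Mup9 had 0 CPM against 0 and 1.13.

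Comparing HFD with SD asks what the diet changed. The member sum was 1.60-fold higher in HFD (log2 ratio 0.68, interval 0.671 to 0.679). Of the 10 members, 5 were higher by at least 1 on the log2 scale, 0 were lower and 5 lay within the limit, where 5.94% of 13335 genes were higher and 4.15% lower. The median log2 ratio was 0.94 over the members and 0.00 over all genes.

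The members past the limit were all near-identical copies. Mup17 had 4751 reads in SD and 81292 in HFD (16.1-fold higher), Mup15 45274 and 208664 (log2 ratio 2.11), Mup2 19912 and 53631 (1.34), and Mup1 11440 and 30188 (1.31). Mup9 had 0 and 12624 reads, at least 3950-fold higher, and passed the filter only through HFD, so it had to differ. Mup3, Mup7, Mup10 and Mup21 had log2 ratios of 0.45, 0.46, 0.58 and 0.43, and Mup20 had -0.13. The sum of Mup3, Mup20 and Mup21 was about level (0.08, 1.06-fold higher in HFD), while the sum of the 7 other members had a log2 ratio of 1.02 and the sum of the 11 other rows 1.20. The higher member sum in HFD thus lay mostly in the genes whose reads are shared.

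Comparing HFD + JT003 with HFD asks what the peptide changed on the diet, and the HFD library stands in both diet comparisons. The member sum was 1.43-fold lower with JT003 (log2 ratio -0.52, interval -0.523 to -0.515), which left it 0.16 above SD on the log2 scale. Against SD, the sum of Mup3, Mup20 and Mup21 was lower with JT003 on the diet (-0.42), and that of the 7 other members higher (0.49). Of the 10 members, 3 were lower by at least 1, 0 were higher and 7 lay within the limit, where 2.36% of 13453 genes were lower and 2.35% higher. The median was -0.55 over the members and 0.00 over all genes. Mup9 had 12624 reads in HFD and 1900 with JT003 (-2.75), Mup15 208664 and 84094 (-1.33), and Mup17 81292 and 33057 (-1.32). Mup20 had 225343 and 131380 reads (-0.80), the largest difference among the 3 distinct genes, beside -0.39 for Mup21 and -0.12 for Mup3. Mup2 and Mup10 had -0.63 and -0.47, and Mup1 and Mup7 had 0.18 and 0.06. The ratio of the sum with JT003 was thus below 0 in the diet model and above 0 in the CCl4 model, each from 1 pair of libraries.

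**Figure D4:**
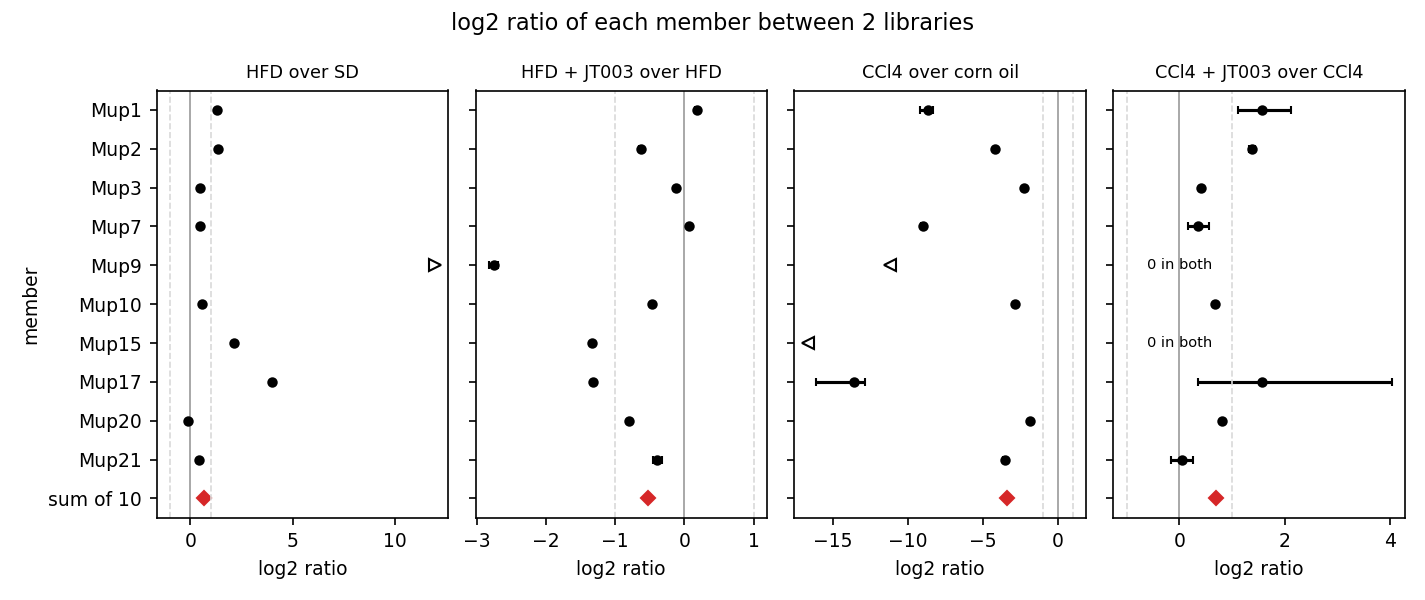
log2 ratio of each member (points, with 95% counting intervals) and of the member sum (red diamonds) in the 4 comparisons, with dashed lines at -1 and 1 and open triangles for bounds where 1 library is at 0. The sum lies at 0.68, -0.52, -3.37 and 0.69 from left to right.

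Male-biased liver genes share the growth hormone pattern of the Mup genes, and 20 of them were listed for comparison. The shares of all genes past the limit, given with each comparison above, are the background for the counts in this list and those below. In CCl4 against corn oil, 12 of the 19 past the count filter were lower by at least 1 and 0 were higher, with a median of -2.44. Moxd1 had 383 reads in corn oil and 0 in CCl4, at least 156-fold lower, and Hsd3b5, a steroid dehydrogenase of the male liver, had 454 and 15 (-5.02). In CCl4 + JT003 against CCl4, 2 of 17 were higher and 1 lower, namely the fatty acid hydroxylases Cyp4a12b (1.15) and Cyp4a12a (1.03) and the elongase Elovl3 (-2.87). The diet split this list. In HFD against SD, 5 of 20 were higher and 4 lower (median -0.13), with Hsd3b5 at 186 and 3521 reads (4.14) and Gna14 at 28 and 177 (2.49) on one side, and Moxd1 at 950 and 14 (-5.98) and Elovl3 at 14013 and 2775 (-2.43) on the other. With JT003 on the diet, 1 of 20 was higher, Moxd1 (4.39), and 3 were lower, among them Elovl3 (-1.19) and Serpina12 (-1.08).

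Female-biased liver genes were low in these male livers, with 10 to 15 of 22 past the count filter. In CCl4 against corn oil 7 of 11 were higher and 4 lower (median 1.91). Cyp2a4 had 943 reads in CCl4 and 0 in corn oil, at least 257-fold higher, and Cyp2b9 had 113 and 1 (5.07), while Cyp2c69 (-3.29) and Cyp17a1 (-2.12) were lower. In CCl4 + JT003 against CCl4, 8 of 15 were higher and 2 lower, with Cux2, a repressor of male-biased genes in female liver, at 6 and 106 reads (3.75), Fmo2 at 2.19 and Cyp2a4 at -2.03. In HFD against SD, 4 of 10 were higher and 4 lower, with Cyp2b9 at least 268-fold higher, Ntrk2 at 1.54, Cyp17a1 at -3.03 and Acot3 at -2.21. With JT003 on the diet, 3 of 12 were higher and 1 lower, with Acot3 at 2.78, Fmo2 at 1.44 and Ntrk2 at -2.87. Cyp4a12a and Cyp4a12b, Cyp2a4, Cyp2b9 and Cyp2c69 also belong to families of similar copies, so their single values are uncertain in the same way. Both lists were drawn up with results of these libraries known, so they lend no independent weight to the members.

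Of 17 genes of the growth hormone and STAT5 axis and other regulators of Mup transcription, CCl4 exceeded corn oil by the fold limit for 1 of 16 and lay that far below it for 4. Bcl6, a repressor that competes with STAT5, had 94 reads in SD, 1281 in HFD, 585 in HFD + JT003, 252 in corn oil, 166 in CCl4 + JT003 and 1260 in CCl4. It was high in HFD and in CCl4, where the members' share of reads was highest and lowest. The part of Bcl6 in the member values was not tested. Cish, a feedback inhibitor that STAT5 induces, had a log2 ratio of -1.61 in CCl4 against corn oil, and the liver factor Onecut1 had -1.40. In CCl4 + JT003 against CCl4, 5 of 17 were higher and 2 lower, with Socs2, another STAT5 target, at 295 and 1314 reads (2.14), Bcl6 at -2.92 and Stat5a at -1.04. In HFD against SD, 2 of 16 were higher, Bcl6 (3.65) and the growth hormone receptor Ghr (1.10), and 0 lower. With JT003 on the diet, 1 of 17 was lower, Bcl6 (-1.15), and 0 higher.

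Other lipocalins, carriers with the same barrel fold, were listed beside the family. Of 10 past the count filter, CCl4 exceeded corn oil by the fold limit for 4 and lay that far below it for 1, with the acute phase gene Lcn2 at 208 and 2714 reads (3.41) and Orm2 at 2.03. With JT003, Lcn2 (1.83) and Orm3 (2.53) were higher and 0 of 10 lower. In HFD against SD, Obp2a (3.61) and Orm3 (3.16) were higher and Apom (-1.02) lower, and with JT003 on the diet 3 of 10 were lower, among them Obp2a (-2.08) and Lcn2 (-1.53), and 0 higher.

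Of 27 other secreted proteins of hepatocytes, 24 lay within the limit in CCl4 against corn oil. Over all 13602 genes 8.76% were higher and 4.91% lower, so most genes lay within it and the count is not particular to this list. Trf (1.19) and Itih4 (1.09) were higher and Serpina1e (-1.92) lower, and the median was -0.08. Serpina1e is 1 of several near-identical antitrypsin genes, and its count is uncertain for that reason. It was also the 1 gene of this list past the limit in HFD against SD (-1.10), and 0 of 27 passed it in both JT003 comparisons. The summed level of the 27 genes was 137565 FPKM in corn oil and 148264 in CCl4, where that of the members was 66793 and 7652.

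Markers of other liver cells also differed between corn oil and CCl4. The summed level of 5 macrophage markers was 16.02 FPKM in corn oil and 35.0 in CCl4, that of 6 stellate cell markers 73.7 and 108.8, and that of 4 bile duct markers 5.64 and 13.9. All 5 macrophage and all 4 bile duct markers had log2 ratios above 0, while 3 of the 6 stellate markers, Acta2 (-0.89), Lrat (-0.21) and Dcn (-0.65), lay below 0 and the collagens Col1a1, Col1a2 and Col3a1 above it. The 4 endothelial markers were all lower, with a summed level of 12.7 FPKM in corn oil and 8.99 in CCl4 and a median log2 ratio of -0.74. Over all 6 libraries these sums ran from 16.02 to 92.3, from 65.1 to 110.4 and from 2.27 to 13.9, with none of the macrophage or stellate markers at 0. Macrophage markers reached their highest sum in HFD + JT003, where the members took 4.60% of reads. The part of these cells in the member values was not tested.

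The 5 genes outside the family most like the member sum, by the least root mean square difference of centred log2(FPKM + 1) over the 6 libraries among 8316 genes with at least 100 counts in every library, were Slco1a1 (0.43), Npr2 (0.44), Phlda1 (0.44), Glul (0.51) and Selenbp2 (0.52). Slco1a1, a male-biased organic anion transporter, had 47.7, 81.0, 106.5, 55.7, 7.02 and 10.7 FPKM in SD, HFD, HFD + JT003, corn oil, CCl4 and CCl4 + JT003. Glul, the glutamine synthetase of hepatocytes around the central vein, had 313.4, 459.3, 498.9, 268.4, 34.2 and 47.0. Both were lowest in CCl4 and next lowest in CCl4 + JT003, as the member sum was, but had their highest level in HFD + JT003, where the member sum was below HFD. Selenbp2 had 86.1, 364.7, 250.2, 183.4, 31.4 and 27.9 FPKM, lowest with JT003 added to CCl4.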

How the data were processed

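Liver RNA-seq of 6 libraries, 1 per condition, was analysed. For each library the authors deposited expected counts per gene, an unnormalized estimate of its reads of which 69.9% to 70.9% were whole numbers, and FPKM, which the authors scaled to transcript length and library size. The submitters' processing notes name HISAT, Bowtie2, RSEM and the build mm9, without roles or versions. The annotation and read length were not given in the sources used here. The authors' 4 comparison tables hold their fold changes and p-values, which were not used. From 1 of them the pooled CCl4 column of expected counts was used, named as the authors' pool, and 7 other expression columns were not used.

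Expected counts were rounded to whole numbers, and a gene with no row in a library was taken as 0. TMM factors were computed within each model of 3 libraries with edgeR 4.0.16 (R 4.3.3) and applied to the library sizes. Log2 ratios used a prior count of 2, for genes that reached 10 counts in either library, and 95% Clopper-Pearson intervals of the conditional binomial. A gene counted as past the fold when its log2 ratio was 1 or more in size. Shares have exact binomial intervals, and a library at 0 was given a limit of 3 counts. At 19374236 to 20184557 reads a library, counting error was small for all but the rarest members. The scripts ran in Python 3.11.15 with numpy 2.4.6, scipy 1.17.1, pandas 2.3.3 and matplotlib 3.10.9, and were checked on simulated data. Identity came from Biopython 1.88 on GENCODE M21 transcripts and RefSeq promoters, and the printed coding stretch from an alignment with MAFFT 7.526. No coordinate was moved between builds. No protein sequences were used here.

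The members, gene lists and marker lists were chosen with earlier results of these data known. Named were the members, the other Mup rows that a result turned on, of each gene list up to 2 genes past the fold with the largest rise and fall in each comparison among those that reached 100 counts, and the 5 genes most like the member sum. Cell type markers were given as sums, and for some with the direction in CCl4 against corn oil. Alternatives were total reads, DESeq2 1.42.0 size factors, TMM over all 6 libraries, FPKM with a pseudocount of 1 or 0.1, other prior counts and count limits, all 21 rows, Mup3, Mup20 and Mup21 alone, and the authors' pooled column. The pool less the CCl4 library was chosen after seeing the data.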

Additional observations from a re-analysis of the deposited data

Results flagged for a closer look

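For 6 members and the member sum, the log2 ratio with JT003 was below 0 in the diet model and above 0 in the CCl4 model. The difference between the models was not tested, since each ratio comes from 1 pair of libraries. The ratio in the CCl4 model less that in the diet model was 1.21 for the member sum (0.69 less -0.52), 2.01 for Mup2 (1.38 less -0.63), 1.15 for Mup10 (0.67 less -0.47) and 1.62 for Mup20 (0.82 less -0.80). It was 0.527 for Mup3 (0.41 less -0.12) and 0.438 for Mup21 (0.05 less -0.39), where the first value lies within its counting interval of 0. It was 2.9 for Mup17 (1.58 less -1.32), which rests on 4 reads in CCl4 and 16 in CCl4 + JT003.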

How the results depend on the processing

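No alternative turned the direction of a sum or moved a count of members past the fold by more than 1.5 times. Total reads as library size gave log2 ratios of the member sum of 0.80 for HFD over SD, -0.51 for HFD + JT003 over HFD, -3.13 for CCl4 over corn oil and 0.76 for CCl4 + JT003 over CCl4, beside 0.68, -0.52, -3.37 and 0.69 as reported. That scaling moved the median of all genes to 0.125 in HFD over SD and 0.245 in CCl4 over corn oil. Summed FPKM gave 0.81, -3.13 and 0.77 for the first, the third and the fourth of these. All 21 Mup rows gave 0.90, -0.55, -4.01 and 0.65, and Mup3, Mup20 and Mup21 alone gave 0.078, -0.49, -2.05 and 0.65. For CCl4 over corn oil, DESeq2 size factors gave -3.38 and TMM over all 6 libraries -3.40. The authors' pooled CCl4 column gave -3.52 for CCl4 over corn oil and 0.84 for CCl4 + JT003 over CCl4, and the pool less the CCl4 library, chosen after seeing the data, gave -3.60 and 0.92. The cause of these moves was not tested. Of 76 member ratios under total reads and DESeq2 size factors, 0 had the opposite sign. No paired analysis was possible because each condition has 1 library, and for the same reason no replicate could be left out.

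Depth limited Mup1, Mup7, Mup9, Mup15, Mup17 and Mup21 in the CCl4 libraries, where each had under 500 reads. Single values of the 7 near-identical members depend on how the authors' counting split shared reads, which the deposited values do not show. The member sum depends on it too, through reads shared with the other Mup rows. Library, animal and condition cannot be told apart.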
